A study of Mus musculus with 12 samples.

Results

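This section describes 10 genes that mark macrophages, measured in the ovaries of mouse fetuses at E16.5 (embryonic day). They were chosen by Ensembl identifier and kept where the identifier was present on the named chromosome, which held for all 10, out of 55416 genes in the count files. RNA from Fmr1 knockout (KO) ovaries was compared with RNA from wild-type (WT) ovaries in 3 libraries per genotype of unfractionated input and in 3 per genotype of RNA pulled down with the antibody ab17722 against FMRP (RNA immunoprecipitation, RIP). FMRP is the product of Fmr1 and binds RNA. Each sample pooled 5 ovary pairs. The KO ovaries carry the Fmr1tm1Cgr allele, and all 12 samples, WT included, bear the strain label B6.129P2-Fmr1tm1Cgr/J. Whether the KO fetuses were homozygous is not given in the labels. The input WT animals are described as littermates.

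Macrophages settle in the fetal gonad from yolk sac and fetal liver progenitors, live among the germ and supporting cells, and clear dying cells. They depend on the receptor encoded by Csf1r for survival, and they are a main source of C1q, the recognition protein of the classical complement pathway, which also tags cell debris for uptake. Several of the genes are shared with related cells. Ptprc is made by nearly all white blood cells, Tyrobp and Fcer1g also by mast cells and natural killer cells, Cx3cr1 also by monocytes, and Mrc1 also by some endothelial cells.

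The input libraries held 18880238 to 25707718 counted reads. Every one of the 10 genes was read in every input library, with 169 to 1898 reads per gene and library. Replicates within a group differed by more than sampling noise in every pair (chi-square over its degrees of freedom, 8.12 to 14.2), and all were kept as separate samples. The tests therefore see only how these pools vary. As a check of the labels, Fmr1 stood at 85.6, 123 and 93.4 CPM (counts scaled to a common library size) in the KO input libraries, against 204, 213 and 221 CPM in the WT input libraries. It passed the test as lower in KO (log2 change -1.08, SE 0.11). Its p, adjusted over all genes by Benjamini-Hochberg after the quasi-likelihood test of edgeR, was 0.00775, and all input p-values below come from that fit.

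None of the 4 receptor genes passed the test between KO and WT. In whole ovaries, fewer macrophages and less RNA per macrophage cannot be told apart, so all levels describe RNA and not cell number. Csf1r (ENSMUSG00000024621, chromosome 18, 61233670 to 61265221) encodes the receptor for the growth factors Csf1 and Il34. It had 55.7, 55.8 and 59.7 CPM in the KO libraries, against 57.6, 54.2 and 56.2 CPM in the WT libraries. The KO values enclosed most of the WT values, and replicates varied less than for any other of the 10 genes (coefficient of variation 3.58%). The log2 change, KO over WT, was 0.03 (SE 0.077, 95% interval -0.13 to 0.19, adjusted p = 0.989). Of its 5774 exonic bases, 873 are shared with exons of overlapping genes, where reads cannot be assigned to a single gene.

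Mrc1 (ENSMUSG00000026712, chromosome 2, 14234203 to 14336868) encodes the mannose receptor, an endocytic receptor for glycoproteins. It had 64.0, 58.8 and 67.7 CPM in KO and 74.9, 61.1 and 69.0 CPM in WT, the highest CPM of the 10 genes. The groups overlapped, with the lowest value in a KO library and the highest in a WT library, and the log2 change was -0.11 (SE 0.084, 95% interval -0.28 to 0.07, adjusted p = 0.961).

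Cx3cr1 (ENSMUSG00000052336, chromosome 9, 119730682 to 119898945) encodes the receptor for fractalkine, a chemokine held on cell surfaces. It had 21.5, 23.3 and 25.1 CPM in KO and 28.3, 21.2 and 26.8 CPM in WT. WT replicate 2 lay below all KO libraries and the other WT libraries above them, and the log2 change was -0.13 (SE 0.12, 95% interval -0.38 to 0.13, adjusted p = 0.976). The annotated span of this gene is 8.58 times that of the RefSeq gene of the same symbol and crosses 9 other genes, although only 78 of its exonic bases are shared with their exons.

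Adgre1 (ENSMUSG00000004730, chromosome 17, 57665691 to 57790527) encodes F4/80, the surface protein most used to stain mouse macrophages. It had 16.8, 20.7 and 19.6 CPM in KO and 20.04, 16.1 and 18.7 CPM in WT. The groups covered nearly the same range, and the log2 change was 0.06 (SE 0.13, 95% interval -0.21 to 0.33, adjusted p = 0.985).

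**Figure D1:**
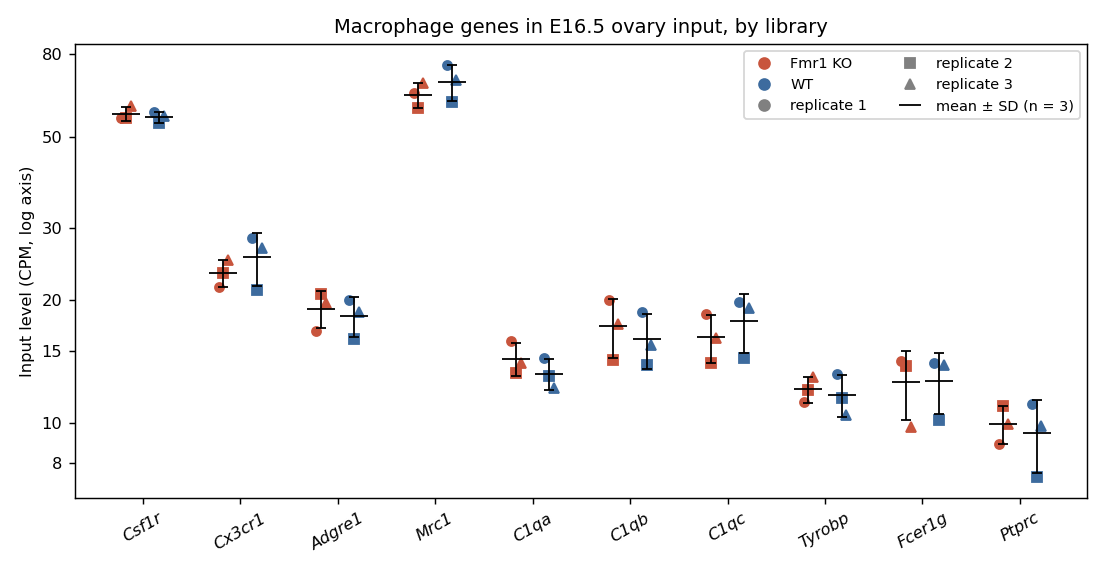
Input level of the 10 macrophage genes in CPM (log axis), with KO libraries left of WT libraries for each gene, 1 point per library and mean ± SD of 3 libraries in black. The KO and WT points overlap for all 10 genes.

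None of the 3 chains of C1q passed the test between KO and WT. Each C1q molecule joins A, B and C chains in equal number. C1qb (136607440 to 136613498), C1qc (136617115 to 136620376) and C1qa (136623228 to 136626114) lie side by side on the minus strand of chromosome 4, within 18.7 kb.

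C1qa (ENSMUSG00000036887) had 15.8, 13.3 and 14.0 CPM in KO and 14.4, 13.0 and 12.2 CPM in WT (log2 change 0.12, 95% interval -0.17 to 0.41, SE 0.14, adjusted p = 0.977). C1qb (ENSMUSG00000036905) had 19.95, 14.3 and 17.5 CPM in KO and 18.7, 13.8 and 15.5 CPM in WT (log2 change 0.10, 95% interval -0.21 to 0.41, SE 0.15, adjusted p = 0.979). C1qc (ENSMUSG00000036896) had 18.4, 14.0 and 16.2 CPM in KO and 19.7, 14.4 and 19.1 CPM in WT (log2 change -0.13, 95% interval -0.43 to 0.17, SE 0.15, adjusted p = 0.976). In both groups replicate 1 had the highest C1qb, and the groups overlapped for all 3 chains.

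Per kilobase of exonic length (CPM per kb), the A and B chains were close and the C chain was lower. This order rests on the annotated exonic lengths, 1040 bases for C1qa, 1088 for C1qb and 1931 for C1qc. In CPM the C chain was not lower, with means over the 6 libraries of 13.8 for C1qa, 16.6 for C1qb and 16.97 for C1qc. C1qa averaged 13.8 ± 1.27 CPM per kb in KO and 12.7 ± 1.08 in WT, C1qb 15.8 ± 2.62 in KO and 14.7 ± 2.29 in WT, and C1qc 8.39 ± 1.14 in KO and 9.18 ± 1.504 in WT (SD of 3 libraries each). Within single libraries the B to A ratio of these levels ran from 1.02 to 1.24. The B to C ratio was 1.88 ± 0.066 in KO and 1.61 ± 0.15 in WT (SD of 3 libraries each), with no overlap between the groups. That is 1 of 3 ratios compared, looked at after the values were seen, and the exact two-sided permutation test gives p = 0.1, the smallest that 3 against 3 libraries allow.

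The signalling adaptors showed no difference that passed the test. Tyrobp (ENSMUSG00000030579, chromosome 7, 30113185 to 30117010) encodes DAP12, the membrane adaptor that carries signals of Trem2 and related receptors. It had 11.3, 12.03 and 12.98 CPM in KO and 13.2, 11.5 and 10.5 CPM in WT (log2 change 0.04, 95% interval -0.26 to 0.35, SE 0.15, adjusted p = 0.991). Fcer1g (ENSMUSG00000058715, chromosome 1, 171057141 to 171061934) encodes the common gamma chain of Fc receptors. It had 14.2, 13.8 and 9.80 CPM in KO and 14.0, 10.2 and 13.8 CPM in WT, so that 1 library of each genotype lay below the other 4. Its replicates varied most of the 10 genes (coefficient of variation 18.3%), and the log2 change was -0.01 (SE 0.17, 95% interval -0.35 to 0.34, adjusted p = 0.999).

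Ptprc (ENSMUSG00000026395, chromosome 1, 137990599 to 138103446) encodes CD45, the receptor phosphatase of white blood cells. It had 8.91, 10.996 and 9.96 CPM in KO and 11.1, 7.37 and 9.86 CPM in WT. Both the highest and the lowest value belonged to WT libraries, and the log2 change was 0.08 (SE 0.17, 95% interval -0.28 to 0.43, adjusted p = 0.985).

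Together, 0 of the 10 genes passed the test (edgeR, adjusted p under 0.05), where 0.0422% of the 23698 tested genes did, all of them lower in KO in this fit. Other settings called genes in both directions, with 17 of 41 higher in KO under DESeq2 and 19 of 37 higher without KO replicate 1. DESeq2 also called 0 of the 10. None of the 10 had an unadjusted p under 0.05, as 5.9% of tested genes did, and the smallest was 0.218. By estimate 6 were higher and 4 lower in KO, against 49.5% higher among all tested genes, and their median log2 change was 0.03, against -0.002 for all tested genes. That median was -0.05 without WT replicate 2 and 0.10 without WT replicate 1, so its sign rested on single libraries. In 0 of the 10 did the KO and WT libraries lack overlap, against 5.22% of tested genes with KO higher and 5.69% with KO lower. A p above the threshold does not show equal levels. The 95% intervals, taken gene by gene, reached at most 1.35-fold higher in KO (Ptprc) and 1.35-fold lower in KO (C1qc). They were narrowest for Csf1r, at 1.14-fold higher and 1.10-fold lower.

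**Figure D2:**
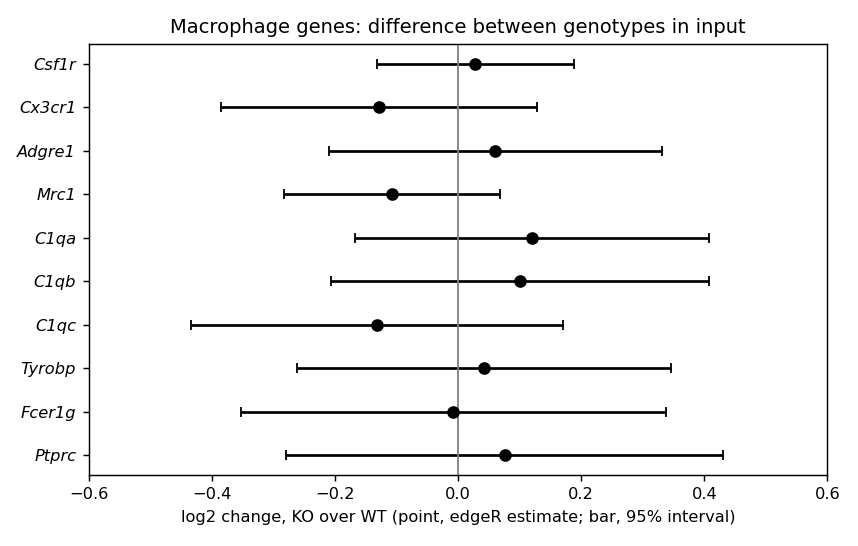
Log2 change of each macrophage gene in input, KO over WT, with its 95% interval from the edgeR fit. All 10 intervals include 0.

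The summed level of the 10 genes was 247, 237 and 252 CPM in the KO libraries and 272, 223 and 252 CPM in the WT libraries. The mean was 245 ± 7.81 CPM in KO, against 249 ± 24.8 for WT (SD of 3 libraries each), a ratio of 0.986. The WT libraries included both the highest and the lowest sum.

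Compared per kilobase, Tyrobp had the highest level (17.9 CPM per kb), followed by C1qb (15.3), Fcer1g (14.5), C1qa (13.3), Mrc1 (10.3), Csf1r (9.79), C1qc (8.79), Adgre1 (5.76), Cx3cr1 (5.41) and Ptprc (0.53). The ranges of neighbours over the 6 libraries overlapped, except those of C1qc and Adgre1 and those of Cx3cr1 and Ptprc. The ranges of C1qa (11.7 to 15.2 CPM per kb) and Mrc1 (9.24 to 11.8) barely overlapped, and C1qa was the higher within each library. Tyrobp lay at percentile 88.0 of all tested genes by this level and Ptprc at percentile 19.6. Ptprc is annotated with 18313 exonic bases, the longest of the 10, against 667 for Tyrobp. In CPM the means over the 6 libraries were 9.71 for Ptprc and 11.9 for Tyrobp. The order per kilobase and these percentiles therefore depend on the annotated lengths.

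The highest and the lowest levels of the 10 genes often fell in the same libraries. In WT replicate 1 all 10 lay above their own mean over the 6 libraries, with a median deviation of 0.18 on the log2 scale, and in WT replicate 2 all 10 lay below it, with a median of -0.20. Over all tested genes, 51.8% and 51.0% lay above their mean in those 2 libraries. The KO libraries were mixed, with 4, 4 and 8 of 10 genes above their mean in replicates 1, 2 and 3. In KO replicate 1 the 3 C1q chains and Fcer1g lay 0.13 to 0.27 above their means, and Cx3cr1, Adgre1, Ptprc, Tyrobp, Mrc1 and Csf1r lay 0.02 to 0.17 below theirs. The shift was less uniform in 24 further genes of macrophage identity and scavenging. Of these, 16 lay above their means in WT replicate 1 (median deviation 0.11) and 9 in WT replicate 2 (median -0.11). In WT replicate 1, all 8 erythroid genes and all 6 complement partners also lay above their means and 0 of 6 germ cell genes did. In WT replicate 2, 0 of 7 monocyte and neutrophil genes lay above their means, with a median deviation of -0.999 on the log2 scale, while 6 of 8 erythroid genes did. The part of these other cell types in the macrophage values was not tested.

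**Figure D3:**
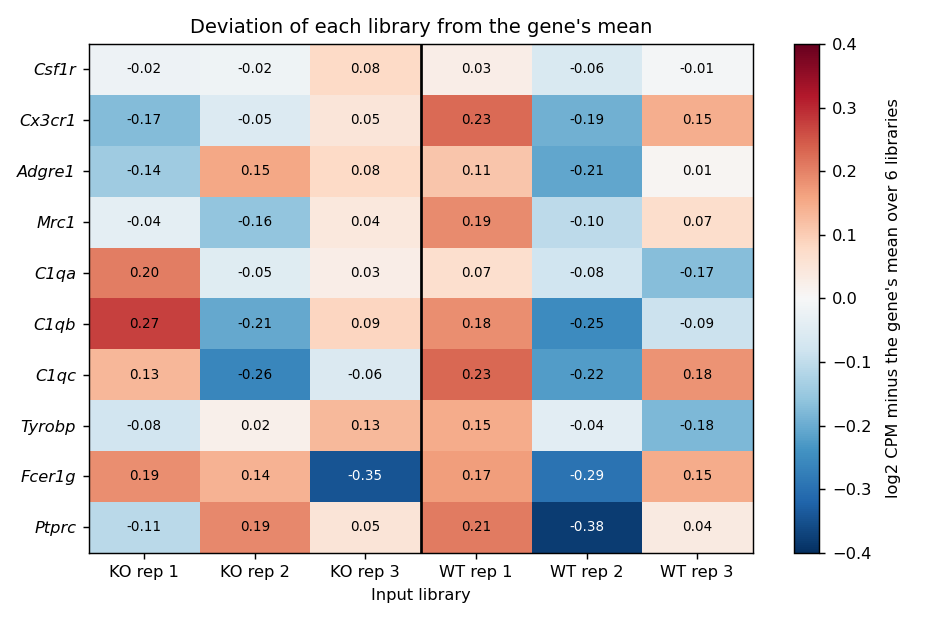
Deviation of each input library (columns, KO left) from each gene's mean over the 6 libraries, in log2 CPM. WT rep 1 is above the mean and WT rep 2 below it for all 10 genes.

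Further genes of macrophage biology were read in the same way. Of 24 genes of macrophage identity and scavenging, 0 passed in either direction, with 11 estimates above and 13 below 0 and a median log2 change of -0.02. Their summed level was 246 to 253 CPM over the KO libraries and 245 to 278 CPM over the WT libraries. The most abundant was Laptm5, a lysosomal membrane protein of blood cells, at 33.1 ± 2.23 CPM in KO, against 34.9 ± 2.83 for WT (SD of 3 libraries each). The highest estimate was that of Folr2, a folate receptor of resident macrophages, at 0.417, 2.07 and 0.848 CPM in KO and 0.237, 1.27 and 0.617 CPM in WT, with a log2 change of 0.70 (SE 0.60, adjusted p = 0.972). Replicate 2 was the highest Folr2 library of each genotype. The lowest was that of Ly86, a partner of a protein related to Toll-like receptors, at 5.32 ± 1.39 CPM in KO, against 6.52 ± 1.00 for WT (log2 change -0.29, SE 0.21, adjusted p = 0.957).

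The ligands of the receptors were measured in the same libraries, and 0 of 3 passed. Csf1, the main growth factor for macrophages, had 21.4, 26.1 and 23.5 CPM in KO and 23.2, 26.4 and 23.4 CPM in WT, with a log2 change of -0.04 (SE 0.12, adjusted p = 0.991). Il34, the other ligand of the Csf1r receptor, stood at 2.66 ± 0.39 CPM in KO, against 2.57 ± 0.46 for WT (SD of 3 libraries each; log2 change 0.05, adjusted p = 0.992). Cx3cl1, which encodes fractalkine, had 12.8, 13.1 and 12.1 CPM in KO and 12.7, 10.95 and 10.2 CPM in WT, with a log2 change of 0.16 (SE 0.14, adjusted p = 0.974).

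Of 8 partners of the adaptors and their kinases, 0 passed, with 4 estimates in each direction. Syk, the kinase that binds phosphorylated adaptors, stood at 17.3 ± 3.01 CPM in KO, against 18.3 ± 1.04 for WT (SD of 3 libraries each). The highest estimate was 0.29, for the phosphatase Ptpn6 (adjusted p = 0.957). Of 6 complement partners, 0 passed. Among them C1s1, a protease of the C1 complex, had the lowest estimate, at 23.7 ± 3.71 CPM in KO, against 28.8 ± 2.39 for WT (log2 change -0.28, SE 0.12, adjusted p = 0.805). The highest estimate was 0.29, for the complement component C4b, whose level was 0.581 to 1.43 CPM in KO and 0.655 to 1.07 CPM in WT.

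Markers of other cell types were read and summed in the same libraries. Of 7 mast cell genes, 6 were tested, and Cma1, a mast cell chymase, fell in KO to 18.2 ± 1.52 CPM, against 31.7 ± 2.09 in WT (SD of 3 libraries each; log2 change -0.80, SE 0.11, adjusted p = 0.0044). The highest estimate was 0.39, for the Fc receptor subunit Ms4a2 (adjusted p = 0.977). It had 1.25, 0.498 and 0.318 CPM in KO and 0.513, 0.524 and 0.522 CPM in WT. The other 5 estimates lay below 0. Of the 6 tested genes, 2 had an unadjusted p under 0.05 (edgeR), against 5.9% of all tested genes. In 4 of the 6 the groups did not overlap, with KO lower, against 5.69% of all tested genes. The mast cell sum was 51.9 to 61.7 CPM in KO and 77.8 to 87.1 CPM in WT, with no overlap, and the part of mast cells in the Tyrobp and Fcer1g values was not tested. Fcer1a, the mast cell partner of Fcer1g, had 0 reads in all KO libraries and 1, 1 and 0 reads in the WT libraries, and is named here after its values were seen.

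Of 8 monocyte and neutrophil genes, 7 were tested and 0 passed (1, S100a9, with no low-count filter), and their sum was uneven between libraries, at 85.5, 33.4 and 113 CPM in KO and 46.9, 24.0 and 46.8 CPM in WT. S100a8, a calcium-binding protein of these cells, had 28.3, 10.5 and 20.5 CPM in KO and 16.1, 9.69 and 11.4 CPM in WT. Replicate 2 of each genotype had the lowest sum. The neutrophil elastase gene Elane had the highest estimate, at 2.97, 0.539 and 10.6 CPM in KO and 0.158, 0.0873 and 1.04 CPM in WT, with a log2 change of 3.48 (SE 1.53, adjusted p = 0.890), and the granule gene Ngp the lowest, at 0.12. The lymphoid sum was 6.78 to 9.01 CPM in KO and 8.86 to 9.11 CPM in WT, and 0 of 5 tested genes passed. The T cell kinase gene Lck was the most abundant, at 3.50 to 4.06 CPM in KO and 2.57 to 5.22 CPM in WT, and estimates ran from -0.54 for the T cell receptor subunit Cd3e to 0.12 for the B cell receptor subunit Cd79a.

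The erythroid sum was 11181 to 14712 CPM in KO and 15480 to 21783 CPM in WT, with 0 of 8 genes past the threshold. At an unadjusted p under 0.05 there were 5 of the 8, against 5.9% of all tested genes. All 8 estimates lay below 0, where 49.5% of all tested genes lay above 0, and the median log2 change was -0.59. The most abundant was the globin gene Hba-a1 (log2 change -0.59, adjusted p = 0.779), and the estimate nearest 0 was -0.55, for the heme enzyme Alas2. The sums of endothelial genes (289 to 305 CPM in KO, 296 to 322 in WT), germ cell genes (384 to 481 CPM in KO, 294 to 387 in WT) and pregranulosa genes (760 to 826 CPM in KO, 754 to 795 in WT) overlapped, and 0 of their 20 tested genes passed. Germ cell estimates were above 0 for 5 genes and below 0 for 1, with a median log2 change of 0.23. At an unadjusted p under 0.05 there were 1 of 6 endothelial, 3 of 6 germ cell and 0 of 8 pregranulosa genes. The most abundant were Kdr, an endothelial growth factor receptor (log2 change 0.02), Stag3, a meiotic cohesin (0.21), and Wt1, a gonadal transcription factor (0.05). Endothelial estimates ran from -0.19 for the cadherin Cdh5 to 0.15 for the transcription factor Erg, germ cell estimates from -0.87 for the oocyte factor Figla to 0.33 for the RNA helicase Ddx4, and pregranulosa estimates from -0.05 for the ovarian factor Foxl2 to 0.08 for the hormone receptor Amhr2. Whether the macrophage genes differ from these lists in their response to genotype was not tested.

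**Figure D4:**
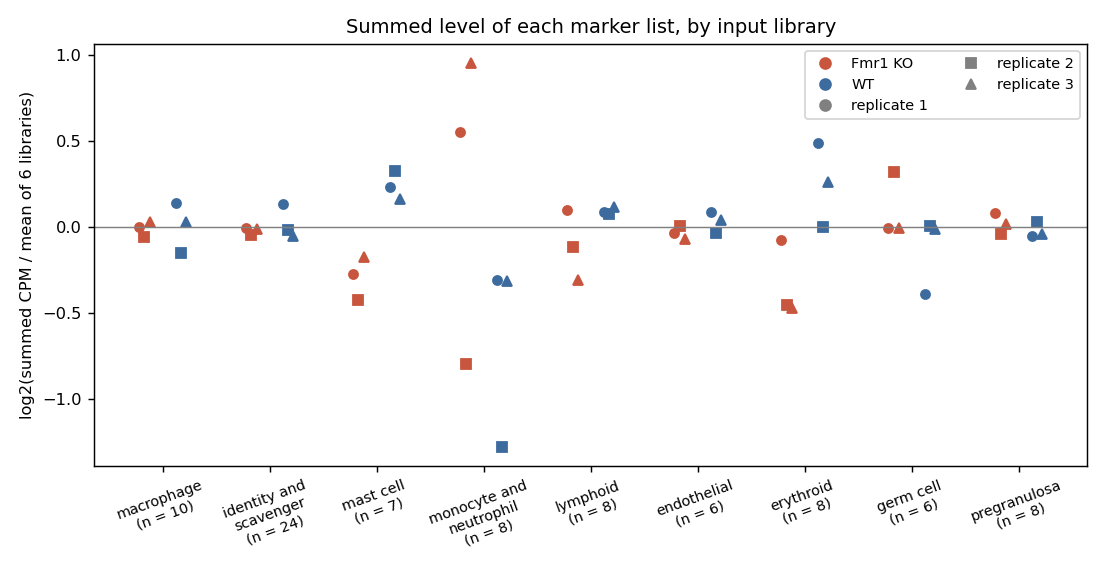
Summed CPM of each marker list in each input library, as log2 of its ratio to the mean of the 6 libraries, with KO left of WT. The macrophage points lie close to 0 in both genotypes, the mast cell and erythroid points are lower in KO than in WT, and the monocyte and neutrophil points are widely scattered.

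The promoters were searched for a sequence the genes might share, namely the core of the site bound by PU.1, the factor that Spi1 encodes and that is known to control many macrophage genes. RefSeq promoter windows (GRCm38.p6) matched 6 of the 10 genes by symbol. The 250 bases before the start site held GAGGAA, or TTCCTC for the other strand, in 4 of those 6 genes, and in 25.9% of the 27025 genes in the promoter table. A match is a description of letters and not evidence of binding. The 4 genes are shown to let their sites be compared, each as 60 bases, 5′ to 3′ on the strand of the gene, with the motif in capitals. The motif has its first base at position -30 from the start site in C1qb, -193 in C1qc, -35 in Mrc1 and -158 in Ptprc. The stretches are chr4:136886201-136886260 (minus strand), chr4:136893075-136893134 (minus strand), chr2:14229352-14229411 (plus strand) and chr1:138175431-138175490 (minus strand), on a build other than that of the gene coordinates given earlier.
C1qb: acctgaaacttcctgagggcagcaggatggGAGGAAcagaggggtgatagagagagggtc
C1qc: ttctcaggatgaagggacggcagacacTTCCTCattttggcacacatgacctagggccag
Mrc1: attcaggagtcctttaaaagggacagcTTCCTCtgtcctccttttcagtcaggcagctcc
Ptprc: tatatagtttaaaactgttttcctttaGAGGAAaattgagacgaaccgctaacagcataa

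Mrc1 held 3 copies in its window, all in the TTCCTC orientation, and the other 3 genes held 1 each. Ptprc has 2 windows in the table, and only 1 of them held the motif. The windows of Fcer1g and Cx3cr1 held no match, which says only that these letters are not in these 250 bases.

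The RIP comparison asked whether the transcripts were recovered differently by the FMRP antibody in KO and WT ovary. The deposited table gives a fold enrichment, a ratio computed by the authors, and 5 of the 10 genes had a row in it (Csf1r with 3 rows, Cx3cr1, C1qa, C1qb and C1qc with 1 each). Of the 23698 genes tested in input, 29.6% had a row. Mrc1 had no row although its input level was the highest in CPM, and neither had Adgre1, Tyrobp, Fcer1g or Ptprc. Row means over the 6 libraries ran from 1.36 for C1qc to 2.85 for the first Csf1r row, against a median of 1.77 over all 14447 rows.

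The first Csf1r row was the only one of the 7 with higher ratios in every KO library. It had 4.52, 4.04 and 2.91 in KO, against 1.62, 1.90 and 2.104 in WT. The lowest KO ratio lay above the highest WT ratio, and the means were 3.82 ± 0.82 in KO and 1.87 ± 0.24 in WT (SD of 3 libraries each), a ratio of 2.04. On the log2(value + 1) scale the difference, KO over WT, was 0.73 (SE 0.17, 95% interval 0.33 to 1.14). It did not pass the adjustment (unadjusted p = 0.00334, adjusted p = 0.414, limma), and adjusted p ran from 0.394 to 0.650 over the alternatives. Csf1r input levels were 57.1 ± 2.28 CPM in KO, against 56.0 ± 1.74 for WT (SD of 3 libraries each).

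The other Csf1r rows did not share that pattern. The second had 1.34, 2.08 and 1.48 in KO and 2.38, 1.49 and 1.51 in WT (log2 difference -0.08, SE 0.15, adjusted p = 0.911), and its values are listed also for ENSMUSG00000024622, a gene that overlaps Csf1r, so it cannot be assigned to either. The third had 1.35, 1.41 and 1.58 in KO and 1.88, 1.41 and 1.49 in WT (log2 difference -0.08, SE 0.091, adjusted p = 0.832). Where on the transcript each row lies is not given in the sources used here.

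C1qa had lower ratios in every KO library, at 1.61, 1.92 and 1.88 in KO and 2.09, 1.98 and 2.75 in WT. The gap between the groups was small, and the log2 difference was -0.22 (SE 0.12, 95% interval -0.51 to 0.07, adjusted p = 0.669). C1qb had 1.38, 2.46 and 1.76 in KO and 1.58, 1.80 and 1.74 in WT, with KO libraries at both ends of the range (log2 difference 0.07, SE 0.14, adjusted p = 0.928). C1qc had 1.30, 1.61 and 1.05 in KO and 1.38, 1.70 and 1.14 in WT (log2 difference -0.06, SE 0.12, adjusted p = 0.926). Cx3cr1 had 1.41, 1.63 and 1.14 in KO and 1.74, 1.17 and 1.62 in WT (log2 difference -0.07, SE 0.12, adjusted p = 0.898).

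Of the 7 rows, 2 had a log2 difference above 0, against 50.5% of all tested rows. Of the 7 rows, 0 passed the test (limma, adjusted p under 0.05), as did 0% of the 14365 tested rows. At an unadjusted p under 0.05 there was 1 of the 7, the first Csf1r row, against 8.85% of all tested rows. The groups did not overlap in 1 row with KO higher (Csf1r), against 6.77% of tested rows, and in 1 with KO lower (C1qa), against 8.39%. The row of Fmr1 itself had 0.388, 0.439 and 0.439 in KO and 1.34, 1.43 and 1.40 in WT. Its mean, 0.906, lay below the filter of 1, so it was not among the tested rows. With no filter on low values, 1 of 14447 rows passed, and 0 of the 7. Among the ligands, Cx3cl1 had 1 row, with 2.02, 1.76 and 1.88 in KO and 2.08, 2.18 and 2.75 in WT (log2 difference -0.20, SE 0.12, adjusted p = 0.684). Of the complement partners, C1ra had 1 row (log2 difference -0.30, adjusted p = 0.689), C1s1 1 that another identifier shares (-0.005, adjusted p = 0.995) and Serping1 3 (-0.03 to 0.15, adjusted p of 0.813 to 0.958).

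**Figure D5:**
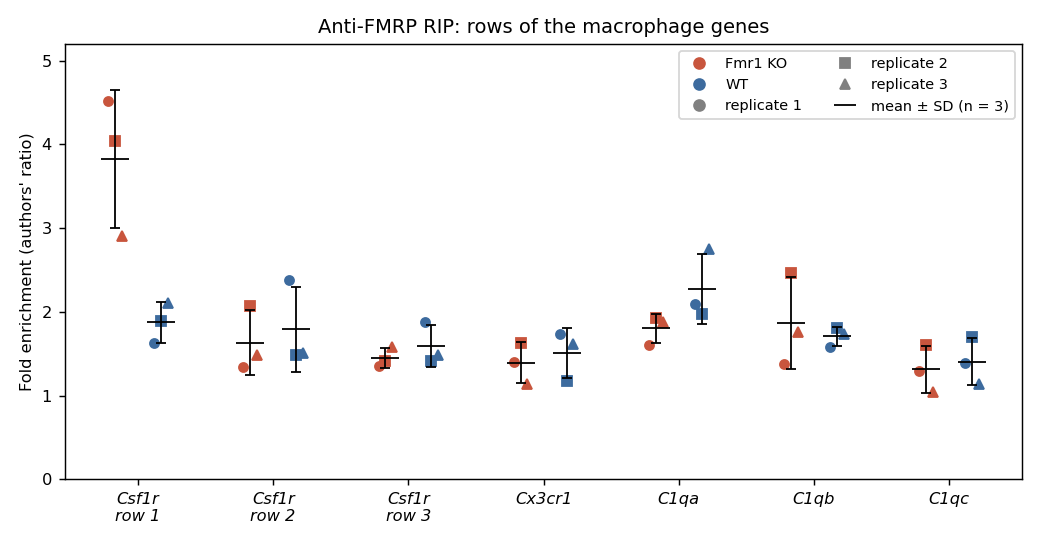
Fold enrichment of the 7 RIP rows of macrophage genes, with KO libraries left of WT libraries, 1 point per library and mean ± SD of 3 libraries in black. The first Csf1r row is the only one in which all KO points lie above all WT points, and C1qa the only one in which all lie below.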

How the data were processed

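Input data are whole read counts for each gene, which the authors deposited unscaled. Per the file headers, they came from featureCounts 1.6.3 over exons and an Ensembl release 104 annotation, with no option for strand. The submitters' processing notes list BWA 0.7.12 and GRCm38 without roles; gene coordinates are those of the count files, whose annotation release belongs to a later build. The RIP table holds a fold enrichment, a linear ratio per library deposited by the authors. What the ratio is relative to, and its depth, were not given in the sources used here. Counts were tested with edgeR 4.0.16 (TMM, filterByExpr, robust quasi-likelihood test) over 23698 genes, KO over WT, at an adjusted p of 0.05. Ratios were tested with limma 3.58.1 on log2(value + 1), columns centred on their medians, keeping rows whose mean reached 1; such differences understate changes of low values. CPM use TMM factors.

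The 10 genes, and the lists, were chosen with earlier results of these data known. All 10 are named. Of the other lists the text names called genes, the most abundant, and those with the highest and lowest log2 change. A few genes that this rule names are not reported here. Listed identifiers were kept where chromosome, strand (where given) and span within 1.5-fold matched the RefSeq gene of that symbol, which held for 92 of 101. The files do not pair identifiers with names. Both tests were first run on simulated data with known changes. The RIP simulation gave every row the same noise, so it does not measure how sensitive that test is in these data. Replicate numbers are not stated to mark a shared litter or batch, so the main fits used no block. Same-numbered KO and WT libraries did not deviate together (correlations of -0.071, -0.034 and -0.044 in input, and -0.60, -0.34 and -0.22 in RIP). In RIP, KO replicate 1 correlated at 0.45 and 0.43 with WT replicates 2 and 3. KO replicates 2 and 3 correlated at 0.40 and 0.24 with WT replicate 1. Deviations were taken from the mean of each group, so a negative correlation with 1 library of a group must come with a positive one with another. These positive values therefore do not show a shared library effect, which was not tested. DESeq2 1.42.0 was among the alternatives.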

Additional observations from a re-analysis of the deposited data

How the results depend on the processing

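The count of 0 macrophage genes past the threshold held in input under DESeq2, RLE size factors, no low-count filter, the replicate block and each library left out, and the count of 0 RIP rows under every alternative run for them. At an unadjusted p under 0.05 the input count was also 0 under every one of these settings. The Fmr1 log2 change, -1.08, ran from -1.25 to -0.97 with a library left out and stayed past the threshold. Genes past the threshold in the other lists, 1 (Cma1), numbered 3 with no low-count filter (Cma1, Cpa3 and S100a9), 7 with the replicate block and 1 with any library left out; the cause was not tested. The 7 were Cma1, the monocyte and neutrophil genes Mpo and Elane, and the erythroid genes Hba-a1, Hba-a2, Hbb-bs and Hbb-bt. In input, 0 of 6 libraries correlated best with the library of its own number. All these correlations were small (-0.071 to 0.051), so they cannot tell whether same-numbered samples shared a litter or batch. The summed level, a log2 ratio of -0.02, ran from -0.09 (without WT replicate 2) to 0.05 (without WT replicate 1). The median log2 change of the 10 genes, 0.03, ran from -0.049 (without WT replicate 2) to 0.10 (without WT replicate 1), was also below 0 without KO replicate 2 (-0.0037), and 4 to 7 of the 10 estimates were above 0 with a library left out. Over all genes, DESeq2 called 41 (17 higher in KO), no filter 113 (48 higher) and the block 20 (4 higher), against 10 (0 higher). With a library left out the count was 5 (without KO replicate 2) to 37 (19 higher, without KO replicate 1), and 28 (0 higher) without WT replicate 2.

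Since the estimates lie near 0, several changed sign, none of them called, when a library was left out. The ranges in input were -0.0016 to 0.049 for Csf1r, -0.023 to 0.14 for Adgre1, -0.017 to 0.23 for C1qb, -0.032 to 0.14 for Tyrobp, -0.14 to 0.15 for Fcer1g and -0.074 to 0.21 for Ptprc. In RIP they were -0.19 to 0.055 for the second Csf1r row, -0.17 to 0.0072 for Cx3cr1, -0.071 to 0.18 for C1qb and -0.14 to 0.031 for C1qc. The first Csf1r row kept its direction in all 12 alternatives, at 0.62 to 0.88 with a library left out, 0.97 with a pseudocount of 0.1 and 0.22 with one of 10.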
